A study of Homo sapiens with 8 samples.

Results

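NRF2, the product of NFE2L2, is a transcription factor that switches on antioxidant and detoxifying genes. In unstressed cells KEAP1 holds NRF2 for ubiquitination by a CUL3 ligase. When oxidants or electrophiles modify KEAP1, NRF2 escapes, enters the nucleus and binds, with a small MAF protein, to antioxidant response elements near its target genes. The genes described here are NFE2L2, its inhibitor KEAP1 and 7 targets: GCLC, GCLM, TXNRD1, SRXN1, NQO1, HMOX1 and OSGIN1. They were chosen by function, and each was read from its probe set with a single gene symbol, the brightest one where a gene had several. All 9 were measured among 22395 genes, and all 9 lay above the low-signal filter (a mean log2 signal over 2.51), which 16796 genes passed.

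Prostate cancer lines C4-2B, DU145, PC3 and VCaP were each transfected with siRNA against DNAPK or with non-targeting siRNA and harvested 48 hours later. C4-2B, derived from LNCaP, and VCaP are known to depend on the androgen receptor, and DU145 and PC3 largely lack it. DNA-PK is a kinase of DNA end joining, and its catalytic subunit is encoded by PRKDC. Each line gave 1 array per treatment, so 8 arrays form 4 pairs, and RNA was labelled from 400 ng. Nothing else in genotype or treatment set the arrays apart according to the labels, which do not say whether cultures were repeated. All values are log2 RMA signals (robust multi-array average), and every treatment difference is DNAPK siRNA minus non-targeting siRNA.

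The targeted gene was lower with DNAPK siRNA in all 4 lines, to different degrees. PRKDC read 6.76 in C4-2B, 7.17 in PC3, 8.08 in DU145 and 9.18 in VCaP with DNAPK siRNA, against 9.29, 9.17, 9.17 and 9.80 for these lines with non-targeting siRNA. The remaining signal was 17.4% of control in C4-2B and 25.1% in PC3, with 47.2% in DU145 and 65.0% in VCaP, so VCaP and DU145 kept the most. The ERG signal marked VCaP (8.65 and 8.57 with DNAPK and non-targeting siRNA, at most 3.56 elsewhere). KLK3, which VCaP is known to express, stood at only 4.75 and 4.46 there, so this marker did not set VCaP apart as it did C4-2B (10.24 and 10.12).

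The clearest pattern in the 9 genes was between the lines, not between the treatments. The mean level over the 2 arrays of a line was highest in DU145 for 9 of 9 genes, where 23.6% of all genes had their highest mean in that line. It was lowest in VCaP for 8 of 9, where 29.2% of all genes were lowest, and SRXN1, lowest in PC3, was the exception on its brightest probe set. With the mean of all its probe sets that have a single symbol, SRXN1 was lowest in VCaP too, which made 9 of 9. Both held for 8 of 9, and for 10.5% of all genes. For 8 of the 9, all but OSGIN1, both DU145 arrays lay above the other 6 arrays (13.1% of all genes), and for 6 of the 9 both VCaP arrays lay below the others (14.7%). The counts for DU145 and VCaP were chosen after these values were seen. Each array reads a whole culture, so fewer expressing cells and less RNA per cell cannot be told apart. Differences between lines were common on these arrays. The moderated F test of limma over the 4 lines called 8 of the 9 genes at an adjusted p of 0.05, and 62.6% of all genes. With 2 arrays per line that differ in treatment, its p-values measure line differences against the spread of the response between lines. Without DU145, 4 of the 9 were called among the remaining lines (KEAP1, NQO1, GCLM and HMOX1), where 52% of all genes were. Without VCaP 7 of 9 were called (KEAP1 had an adjusted p of 0.0556), against 55.9% of all genes, and without PC3 9 of 9, against 50% of all genes.

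**Figure D1:**
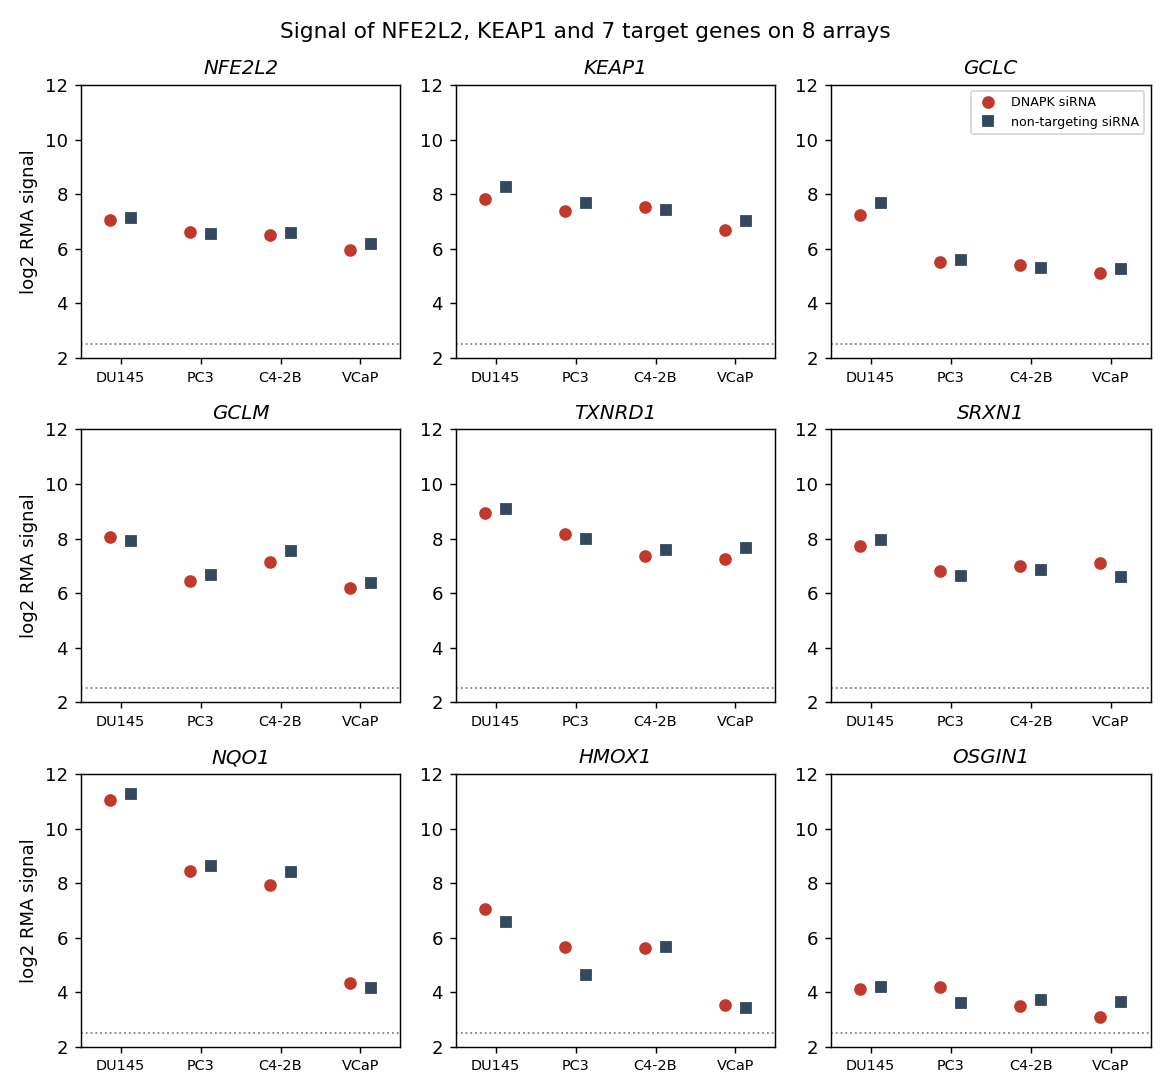
Log2 RMA signal (y axis, same range in each panel) of the 9 genes on the 8 arrays, by cell line (x axis). Red circles are DNAPK siRNA arrays, dark squares non-targeting siRNA arrays, and the dotted line is the low-signal filter at 2.51. DU145 holds the highest line mean in every panel, and NQO1 spans from 4.15 to 11.27.

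On the probe sets used, the largest log2 difference between lines was 1.04 for NFE2L2 and 1.19 for KEAP1, the 2 regulators. Another, dimmer probe set lists NFE2L2 among 2 symbols and was not used. With DNAPK and non-targeting siRNA it read 5.64 and 5.54 in DU145, 4.01 and 4.17 in PC3, 3.19 and 3.27 in C4-2B, and 3.18 and 3.15 in VCaP. Which of its genes gave that signal was not tested. With DNAPK siRNA, NFE2L2 read 7.06 in DU145 and 5.94 in VCaP, with 6.61 in PC3 and 6.50 in C4-2B. The control arrays read 7.13 in DU145 and 6.16 in VCaP, with 6.56 in both PC3 and C4-2B. DU145 was high and VCaP low under both treatments, and PC3 and C4-2B lay close together between them. The DU145 mean exceeded the VCaP mean by 1.04 on the log2 scale (SE 0.16, limma, adjusted p = 0.00144). PC3 and C4-2B did not differ beyond the spread (0.05, adjusted p = 0.83). DU145 exceeded PC3 by 0.51 (adjusted p = 0.0432), a call that was lost with median centring (adjusted p = 0.0551), with no filter (0.0528) and without C4-2B (0.0862). C4-2B exceeded VCaP by 0.48 (adjusted p = 0.0489), lost with no filter (0.0587), without DU145 (0.0741) and without PC3 (0.0754). PC3 exceeded VCaP by 0.53 (adjusted p = 0.0285), lost without C4-2B (0.0599).

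KEAP1, the inhibitor, had the same order of line means as NFE2L2 and not the opposite one. Its signal with DNAPK siRNA was 7.82 in DU145 and 6.70 in VCaP, with 7.38 in PC3 and 7.54 in C4-2B. That with non-targeting siRNA was 8.28 in DU145 and 7.02 in VCaP, with 7.67 in PC3 and 7.44 in C4-2B. The DU145 mean was 1.19 above VCaP (SE 0.18, limma, adjusted p = 0.00160), and PC3 and C4-2B were indistinguishable (0.04, adjusted p = 0.888). DU145 was 0.56 above C4-2B (adjusted p = 0.0482), which was lost with median centring (0.0587), with no filter (0.0586) and without PC3 (0.0768). DU145 was 0.52 above PC3 without passing (adjusted p = 0.0684), though it passed with the 50th percentile filter (0.0457) and with a trended, robust prior (0.0312). C4-2B was 0.63 above VCaP (adjusted p = 0.0321), lost without PC3 (0.0541). As background, DU145 has been described as a line with impaired KEAP1, through promoter methylation and altered splicing. The KEAP1 RNA signal was not low in DU145 here, and a gene-level array signal shows neither splicing nor protein. Whether KEAP1 was impaired in these DU145 cultures, or bore on the levels described, was not tested.

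GCLC and GCLM encode the catalytic and modifier subunits of glutamate-cysteine ligase, the rate-limiting enzyme of glutathione synthesis. GCLC read 7.23 in DU145 with DNAPK siRNA, and elsewhere 5.50 (PC3), 5.40 (C4-2B) and 5.10 (VCaP). The control arrays gave 7.67 in DU145, and elsewhere 5.57 (PC3), 5.28 (C4-2B) and 5.27 (VCaP). DU145 stood alone, and the arrays of the other 3 lines lay between 5.10 and 5.57. GCLC was 1.92 higher in DU145 than in PC3, the next line (3.78-fold, SE 0.18, limma, adjusted p = 2.67e-04), while no pair among PC3, C4-2B and VCaP passed (adjusted p from 0.166 to 0.544).

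The modifier subunit had a different order. GCLM read 8.07 in DU145 and 7.16 in C4-2B with DNAPK siRNA, against 7.90 and 7.54 with non-targeting siRNA. In PC3 it read 6.45 with DNAPK siRNA and 6.68 with non-targeting siRNA, and in VCaP 6.17 and 6.37. C4-2B lay between DU145 and the other lines, where for GCLC it did not. DU145 exceeded C4-2B by 0.64 (limma, adjusted p = 0.0288), C4-2B exceeded PC3 by 0.78 (adjusted p = 0.0122), and PC3 and VCaP did not differ beyond the spread (0.29, adjusted p = 0.244).

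TXNRD1, the cytosolic thioredoxin reductase, keeps thioredoxin reduced with NADPH. It read 8.94 in DU145 and 8.15 in PC3 with DNAPK siRNA, against 9.09 and 7.99 with non-targeting siRNA. In C4-2B it read 7.37 with DNAPK siRNA and 7.59 with non-targeting siRNA, and in VCaP 7.26 and 7.66. DU145 was highest, PC3 second, and C4-2B and VCaP overlapped. DU145 exceeded PC3 by 0.94 (1.92-fold, limma, adjusted p = 0.00706). PC3 exceeded C4-2B by 0.59 (adjusted p = 0.0369, or 0.0581 without DU145) and VCaP by 0.62 (adjusted p = 0.0285, or 0.0554 without C4-2B). C4-2B and VCaP differed by 0.02 (adjusted p = 0.936).

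SRXN1, sulfiredoxin, restores overoxidised peroxiredoxins. Its DU145 signal was 7.73 with DNAPK siRNA and 7.95 with non-targeting siRNA. The DNAPK siRNA arrays of the other lines read 7.01 in C4-2B, 7.11 in VCaP and 6.82 in PC3, against 6.85, 6.59 and 6.63 on their control arrays. Again DU145 stood apart, and the range of the 2 VCaP arrays took in those of C4-2B and PC3. DU145 exceeded C4-2B by 0.91 (1.88-fold, limma, adjusted p = 0.00989), and no pair of the other 3 lines passed (adjusted p from 0.474 to 0.786). A second, dimmer probe set of SRXN1 placed both VCaP arrays below the other 6, at 4.54 and 3.74 in DU145 with DNAPK and non-targeting siRNA, 3.70 and 3.80 in PC3, 3.74 and 3.59 in C4-2B, and 2.61 and 3.19 in VCaP. A further probe set that lists SRXN1 among 2 symbols was not used, and it was highest in VCaP (3.30 and 2.98, at most 2.75 elsewhere).

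NQO1, a quinone reductase often used as a readout of NRF2 activity, had the widest range of the 9 genes. At the top, DU145 read 11.03 with DNAPK siRNA and 11.27 with non-targeting siRNA. PC3 read 8.44 with DNAPK siRNA and 8.64 with non-targeting siRNA, and C4-2B 7.94 and 8.42. VCaP read 4.32 with DNAPK siRNA and 4.15 with non-targeting siRNA. The lines formed 3 levels, with PC3 and C4-2B together in the middle. DU145 exceeded PC3 by 2.61 (6.10-fold, SE 0.19, limma, adjusted p = 7.53e-05), and C4-2B exceeded VCaP by 3.94 (15.4-fold, adjusted p = 1.40e-05). DU145 and VCaP differed by 6.91 (adjusted p = 1.84e-06), while PC3 and C4-2B differed by 0.36 without passing (adjusted p = 0.186).

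HMOX1, heme oxygenase, opens the heme ring to give biliverdin, iron and carbon monoxide, and it is also held down by the repressor BACH1. In DU145 it read 7.05 with DNAPK siRNA and 6.57 with non-targeting siRNA, and in C4-2B 5.64 and 5.66. In PC3 it read 5.65 with DNAPK siRNA and 4.63 with non-targeting siRNA, and in VCaP 3.54 and 3.41. Here too DU145 was highest and VCaP lowest, and the arrays of C4-2B and PC3 overlapped. DU145 exceeded C4-2B by 1.16 (2.24-fold, limma, adjusted p = 0.00964), and PC3 exceeded VCaP by 1.66 (adjusted p = 0.00150). The VCaP signals lay among those of ERG in the lines other than VCaP (at most 3.56), and detection was not examined, so the difference from VCaP may be understated. C4-2B and PC3 did not differ beyond the spread (0.51, adjusted p = 0.163).

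OSGIN1, an oxidative stress-induced growth inhibitor, had low signals and was the 1 gene that the F test did not call (limma, adjusted p = 0.0982). DU145 read 4.11 with DNAPK siRNA and 4.19 with non-targeting siRNA, and PC3 4.18 and 3.60. C4-2B read 3.50 with DNAPK siRNA and 3.73 with non-targeting siRNA, and VCaP 3.11 and 3.63. The arrays of neighbouring lines overlapped, and no neighbours in the order of levels differed beyond the spread. Only DU145 against VCaP passed as a pair (0.79, adjusted p = 0.0405), and without C4-2B it did not (0.0649).

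In all, 36 of 54 comparisons of 2 lines passed for the 9 genes, mostly those with DU145. All 9 passed between DU145 and VCaP, all but OSGIN1 between DU145 and C4-2B, and all but KEAP1 and OSGIN1 between DU145 and PC3. Between C4-2B and PC3 only GCLM and TXNRD1 passed. Against VCaP, NFE2L2, KEAP1, NQO1 and HMOX1 passed for both C4-2B and PC3, GCLM for C4-2B alone and TXNRD1 for PC3 alone. Of all genes, 34.5% passed between C4-2B and DU145, 36.2% between C4-2B and PC3, 34.7% between C4-2B and VCaP, 30.5% between DU145 and PC3, 41.7% between DU145 and VCaP and 41.1% between PC3 and VCaP. As a description of the same line order, all 36 pairwise Pearson correlations were above 0, from 0.48 (SRXN1 with OSGIN1) to 0.97 (NFE2L2 with NQO1), with a median of 0.81. These describe 8 arrays from 4 lines, and a pair of arrays of 1 line is nearly a repeat, so each rests on 4 levels. The share of other gene pairs above 0 was not computed. Among all other genes, those closest to NQO1 over the 8 arrays were CPNE2, RNU5F-1, GRK5, NMRK1 and GNL1, with r of 0.99 each. Those closest to the mean of the 7 scaled targets were HOXC9, BATF3, SNAI3-AS1, PTPRE and SPTLC1, with r from 0.987 to 0.992.

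Because these genes share a known binding element, their promoters were searched for its core (TGAC, any 3 bases, then GC) on either strand. RefSeq promoter sequences (GRCh38.p14, 250 bases before each start) were matched for 8 of the 9 genes, with 11 starts, and HMOX1 was not matched. The core was found in 4 of the 11, belonging to GCLM, KEAP1 and TXNRD1, against 10.9% of 35116 promoters of all genes. The matches below show the core in capitals, as read on the gene's own strand, where a core starting with GC and ending with GTCA runs on the opposite strand. The same core letters stood before GCLM and KEAP1. KEAP1 held a second match, not shown. These are letter matches in a short window, not sites shown to be bound.
GCLM, chr1:93909431-93909500, minus strand, core 34 to 26 bases before the start: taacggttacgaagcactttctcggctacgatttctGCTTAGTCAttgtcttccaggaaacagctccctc
KEAP1, chr19:10502784-10502812, minus strand, core 31 to 23 bases before a start inside the gene: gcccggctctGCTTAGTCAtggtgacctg
TXNRD1, chr12:104215644-104215724, plus strand, core 99 to 91 bases before the first start: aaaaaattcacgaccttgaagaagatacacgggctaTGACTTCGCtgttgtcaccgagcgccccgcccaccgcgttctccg
TXNRD1, chr12:104286920-104286948, plus strand, core 102 to 94 bases before a start inside the gene: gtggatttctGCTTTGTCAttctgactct

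No difference between DNAPK siRNA and control that held over the 4 lines was detected in these genes. The limma fit with the line as a block called 0 of 9, and 0 of 9 had an unadjusted p under 0.05, against 0% and 7.19% of all 16796 genes. Their adjusted p ran from 0.688 (HMOX1) to 0.941 (OSGIN1). None had the same sign in all 4 lines, where 11.5% of all genes were above 0 and 5.89% below 0 in each line. The mean difference lay below 0 for 7 of 9 and the median of the 9 was -0.14, against 0.03 over all genes. That median was -0.09 without C4-2B, -0.07 without DU145, -0.17 without PC3 and -0.07 without VCaP. With 4 pairs of arrays, an exact sign-flip test could not go below 0.125. PRKDC, the targeted gene, had the largest mean difference in size of all 16796 genes (-1.56, limma, unadjusted p = 8.37e-04). It did not pass either (adjusted p = 0.688), so the lack of calls says little about the 9 genes.

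**Figure D2:**
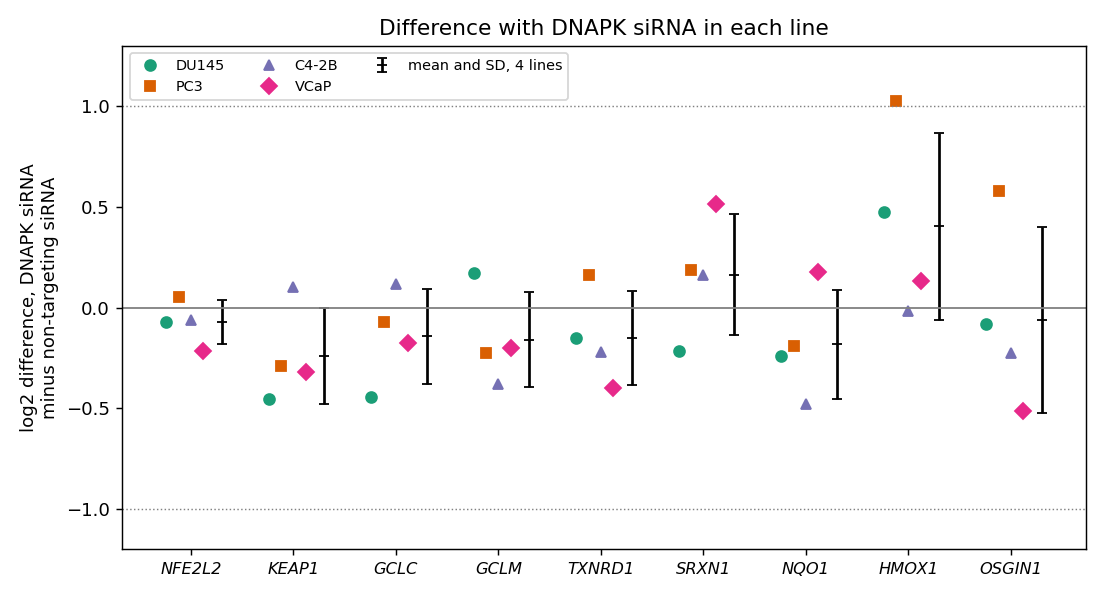
Log2 difference between DNAPK siRNA and non-targeting siRNA (y axis) for each of the 9 genes (x axis), 1 marker per line, with the mean and SD over 4 lines in black. Dotted lines mark 1 and -1. Each gene has markers on both sides of 0, and the PC3 marker of HMOX1 is the single one past 1.

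Among the regulators, NFE2L2 had small differences, -0.06 in C4-2B and -0.07 in DU145, with 0.05 in PC3 and -0.22 in VCaP. Its mean was -0.07 ± 0.11 (SD, n = 4 lines), with a limma 95% interval from -0.33 to 0.19, and it was -0.12 without PC3 and -0.03 without VCaP. KEAP1 was below 0 in 3 lines (-0.46 in DU145, -0.29 in PC3, -0.32 in VCaP) and at 0.10 in C4-2B, the line with the deepest loss of PRKDC. Its mean of -0.24 ± 0.24 (95% interval -0.54 to 0.06) did not pass (limma, adjusted p = 0.694).

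GCLC and GCLM did not share a pattern over the lines. GCLC had -0.44 in DU145 and 0.12 in C4-2B, with -0.07 in PC3 and -0.18 in VCaP, a mean of -0.14 ± 0.23. GCLM had 0.17 in DU145 and -0.38 in C4-2B, with -0.23 in PC3 and -0.20 in VCaP, a mean of -0.16 ± 0.23. In DU145 and C4-2B the subunits therefore had opposite signs, and neither mean passed. The GCLC mean was -0.04 without DU145 and -0.23 without C4-2B, and the GCLM mean was -0.27 without DU145 and -0.09 without C4-2B.

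In the thioredoxin arm, TXNRD1 had 0.16 in PC3 and values below 0 elsewhere (DU145 -0.15, C4-2B -0.22, VCaP -0.40), a mean of -0.15 ± 0.23. SRXN1 had -0.22 in DU145 and values above 0 elsewhere (PC3 0.19, C4-2B 0.16, VCaP 0.52), a mean of 0.16 ± 0.30. The VCaP and DU145 values of SRXN1 depended on the probe set. Averaging its 2 probe sets with a single symbol turned them to -0.03 in VCaP and 0.29 in DU145. The SRXN1 mean was 0.04 without VCaP and 0.29 without DU145, and the TXNRD1 mean was -0.07 without VCaP and -0.26 without PC3.

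NQO1 was below 0 in the 3 lines where it was bright (DU145 -0.24, PC3 -0.19, C4-2B -0.48) and at 0.18 in VCaP, where its signal was lowest. Its mean was -0.18 ± 0.27 (95% interval -0.50 to 0.13, limma, adjusted p = 0.756), and it was -0.30 without VCaP and -0.09 without C4-2B.

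HMOX1 had the largest treatment difference of the 9. In PC3 it read 5.65 with DNAPK siRNA and 4.63 with non-targeting siRNA, a difference of 1.02 (203% of control). That value lay above those of 99.5% of all genes in PC3, and it was the single one past 1 in either direction among the 36 values of the 9 genes. Of all genes, 1.07% were past 1 in PC3 and 0.583% in C4-2B, with 1.12% in DU145 and 3.7% in VCaP. DU145 had 0.48, VCaP 0.13 and C4-2B -0.02. The mean was 0.40 ± 0.46 (95% interval -0.02 to 0.82), with an unadjusted p of 0.0573 and an adjusted p of 0.688 (limma). Without PC3 the mean was 0.20, so it rested largely on 1 line with 1 array per treatment.

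OSGIN1 also differed most in PC3, with 0.58, and it had -0.52 in VCaP, -0.23 in C4-2B and -0.08 in DU145. These are differences of a dim probe set, and the mean of -0.06 ± 0.46 turned to 0.09 without VCaP, and was -0.27 without PC3 and -0.01 without C4-2B. Past 0.5 in either direction, PC3 had HMOX1 and OSGIN1 (11.3% of all genes) and VCaP had SRXN1 and OSGIN1 (23.3%). C4-2B and DU145 had none of the 9, against 8.27% and 11.4% of all genes. VCaP had the smallest loss of PRKDC and the most genes past 0.5.

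The wider pathway was read from 7 lists of regulators and redox enzymes with 111 genes, of which 95 were measured and 91 passed the filter. None of the 91 passed the treatment test over 4 lines (limma, background 0% of all genes), with 2 of 16 regulators, 5 of 23 glutathione genes, 3 of 13 thioredoxin genes and 1 of 7 NADPH genes at an unadjusted p under 0.05 and 0 in the other 3 lists, against 7.19% of all genes. Medians of the mean differences were 0.05 for NRF2 partners and regulators, -0.05 for glutathione genes, 0.05 for thioredoxin and peroxiredoxin genes and -0.23 for NADPH-producing enzymes (-0.12 without VCaP). They were -0.09 for quinone and carbonyl enzymes, 0.04 for heme and iron genes and 0.08 for superoxide and peroxide enzymes.

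**Figure D3:**
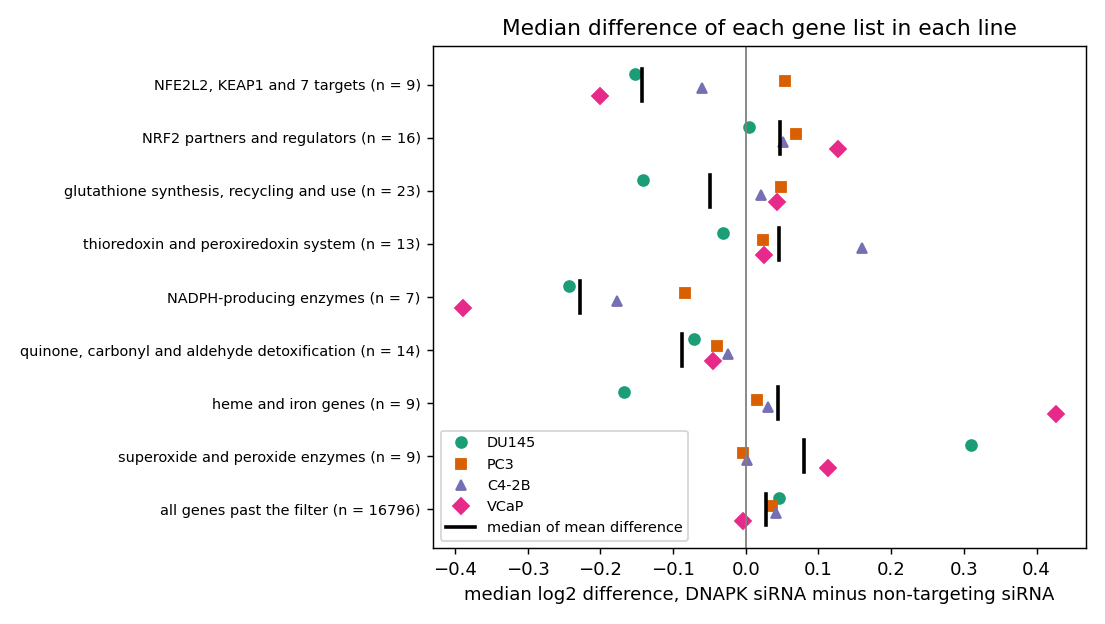
Median log2 difference between DNAPK siRNA and non-targeting siRNA (x axis) for each gene list (rows) in each line (markers), with the median of the mean differences as a black bar and all genes in the last row. Only NADPH-producing enzymes and quinone and carbonyl enzymes have 4 markers below 0, and the VCaP marker of heme and iron genes, at 0.43, lies furthest above 0.

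Among partners and regulators, DPP3, which can compete with NRF2 for KEAP1, had a mean difference of 0.45 ± 0.24 and the ubiquitin ligase gene TRIM21 0.38 ± 0.12, both above 0 in each line (SD, n = 4 lines). The co-activator gene CREBBP had -0.11 ± 0.23 and BACH2 -0.10 ± 0.29. None of them passed (limma, adjusted p from 0.688 to 0.862).

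Among glutathione genes, SLC7A11, which imports the cystine needed for glutathione and is a target of both NRF2 and ATF4, was below 0 in each line, with -2.30 in VCaP and -1.04 in C4-2B, then -0.82 in PC3 and -0.45 in DU145. CHAC1, an ATF4 target that degrades glutathione, had -1.87 in VCaP and -1.31 in C4-2B, then -0.12 in PC3 and -0.03 in DU145. Over the 4 lines the means were -1.15 ± 0.80 for SLC7A11 and -0.83 ± 0.91 for CHAC1, beside -0.14 and -0.16 for GCLC and GCLM. The glutathione transferase gene GSTM3 had 0.35 ± 0.19 and the glutathione peroxidase gene GPX1 0.23 ± 0.23. None passed (limma, adjusted p from 0.688 to 0.703).

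In the thioredoxin list, TXNDC17 had 0.40 ± 0.22 and TXNIP, which binds thioredoxin, 0.31 ± 0.18, above 0 in each line. SESN2 had -0.70 ± 1.27, with -2.44 in VCaP and 0.32 in PC3, and SESN3 had -0.45 ± 0.48 (SD, n = 4 lines).

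ME1, the cytosolic malic enzyme that makes NADPH, had like differences in the 4 lines. It read 9.29 in DU145 and 9.26 in C4-2B with DNAPK siRNA, against 9.54 and 9.75 with non-targeting siRNA. In PC3 it read 8.34 with DNAPK siRNA and 8.82 with non-targeting siRNA, and in VCaP 6.59 and 6.94. It was lower in each line, with a mean difference of -0.39 ± 0.12 and an unadjusted p of 0.00886, but it did not pass over all genes (limma, adjusted p = 0.688). MTHFD2 had -0.47 ± 0.80, which rested on -1.64 in VCaP, and PGLS and IDH1 had 0.02 ± 0.29 and -0.03 ± 0.31.

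Of the quinone and carbonyl enzymes, CBR4 had 0.15 ± 0.30, CBR3 0.08 ± 0.38, AKR1C3 -0.38 ± 0.80 and CES1 -0.21 ± 0.34. AKR1C3 has close relatives in its family, so its value is uncertain. Among heme and iron genes, the transferrin receptor gene TFRC had 0.29 ± 0.50, with 0.96 in VCaP, BLVRB, a biliverdin reductase, 0.11 ± 0.25, NCOA4 -0.06 ± 0.12 and the iron exporter gene SLC40A1 -0.01 ± 0.47. Among superoxide and peroxide enzymes, CYBB had 0.20 ± 0.40, OXSR1 0.17 ± 0.17, CYBA -0.32 ± 0.45 and SOD3 -0.06 ± 0.39 (SD, n = 4 lines).

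The wider lists were less often highest in DU145 by count than the 9 genes, a difference that was not tested. The line mean was highest in DU145 for 28 of the 91 genes, against 23.6% of all genes. The difference between the DU145 mean and the mean of the other 3 lines was past 1 for 6 of the 9 genes and 14 of the 91, against 8.06% of all genes. In the other direction, it was past -1 for 0 of the 9, for 8 of the 91 and for 1121 of all 16796 genes. Its median was 1.26 over the 9, 0.19 over the 91 and -0.01 over all genes.

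**Figure D4:**
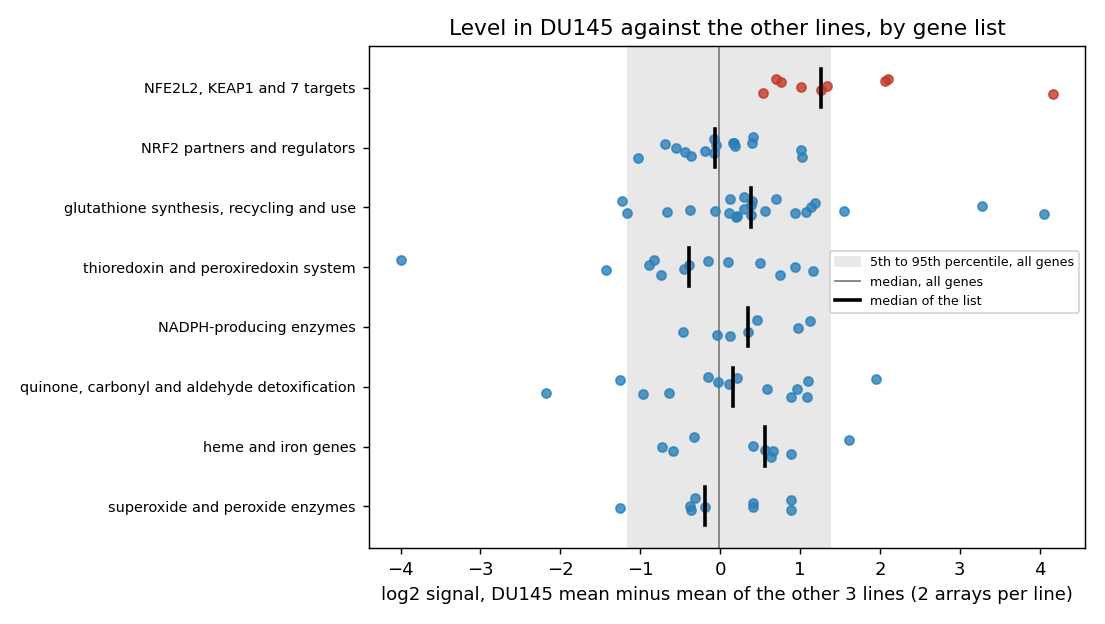
DU145 mean minus the mean of the other 3 lines (x axis, log2 signal) for each gene (points) of each list (rows), with list medians as black bars. The grey band spans the 5th to 95th percentile of all genes, from -1.16 to 1.38, and all 9 points of the top row lie above 0.

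The wider genes that follow were chosen after their values were seen, for levels that differ widely between lines. The drug exporter gene ABCC2 read 5.83 in DU145 with DNAPK siRNA and 6.39 with non-targeting siRNA, and at most 2.35 in any other array. ABCC3 was high in DU145 (7.97 and 8.99 with DNAPK and non-targeting siRNA) and in PC3 (8.66 and 8.33), and at most 4.09 in the other arrays. UGDH, which makes UDP-glucuronic acid, was 1.95 above the mean of the other lines, and the ferritin light chain gene FTL, an NRF2 target, 1.61 above. TXNIP went the other way, at 4.76 and 4.48 in DU145 with DNAPK and non-targeting siRNA against at least 8.16 in the other arrays. GSTP1, a gene often silenced by promoter methylation in prostate cancer, was high in PC3 (7.20 and 7.28 with DNAPK and non-targeting siRNA) and DU145 (6.08 and 6.52) and low in C4-2B (3.10 and 4.13) and VCaP (3.30 and 3.48), so it did not follow the order of NQO1.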

How the data were processed

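The authors deposited log2 signals per probe set, made with oligo and RMA per the submitters' processing notes, with no version given. RMA corrects background and makes the distributions of all arrays alike, so differences are relative to the bulk of transcripts. With scanner output not used here, detection calls and scan dates were not examined. Precision is limited by having 8 arrays. Of 53617 probe sets, 23871 had 1 symbol (22569 updated through Entrez IDs with the GRCh38.p14 RefSeq table). The brightest probe set stood for each of 22395 genes, and genes at or below the 25th percentile of mean signal were set aside.

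One limma fit (version 3.58.1, R 4.3.3) held the line and the treatment as terms, with 3 residual degrees of freedom (7.55 with the prior), p-values adjusted by Benjamini-Hochberg over the 16796 genes, called under 0.05. The line pairs the arrays by design (correlation of deviations from treatment group means 0.864 to 0.918 within a line, at most 0.0135 between lines). Subtracting those means lowers correlations between lines by itself. A high value within a line shows that its 2 arrays share a line, not how the cultures were grown. The fit was tested on simulated data. No label names separate repeats of a line, so p-values measure the spread between these arrays. Named genes are the 9, PRKDC, the 2 highest and 2 lowest mean differences of each wider list, and the 5 genes closest in pattern to NQO1 and to the mean of the targets. Outside that rule stand the markers ERG and KLK3, and ABCC2, ABCC3, UGDH, FTL and GSTP1, named after their values were seen. The markers KLK2, TMPRSS2 and HOXB13 were also read, and their values are not given here. Members and lists were chosen with earlier results of these data known.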

Additional observations from a re-analysis of the deposited data

Results flagged for a closer look

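GCLC in the DU145 control array stood apart from the other 3 control lines, at 7.67 against 5.27 to 5.57 (its gap to the nearest was 0.876 of the range, past Dixon's 95% critical value for 4 values). Of 27 such sets of 4 values examined for the 9 genes, this was the single one past the critical value, and chance flags about 1 in 20. OSGIN1 had a difference with DNAPK siRNA of 0.58 in PC3 and -0.52 in VCaP, 1.09 apart with opposite signs, and with 1 array per treatment in a line this difference was not tested.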

How the results depend on the processing

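The treatment test called 0 genes under all 11 alternatives (median centring, cyclic loess, no filter, a 50th percentile filter, the mean of all probe sets with a single symbol, a trended and robust prior, no line block, and leaving out each line). The fit with no replicate block, which leaves out the pairing by line, called 0 genes, with 63 at an unadjusted p under 0.05 against 1208 with it. It gave each of the 9 genes the same mean difference. Over the 9 genes, 1 mean difference changed sign, that of OSGIN1, which ran from -0.2747 to 0.0893 with each line left out. The share of all genes that differ between lines was 48.7% to 55.9% with a line left out, against 62.6% with all lines. The share of line pairs called for the 9 genes was 66.7% with all lines and 37.0% (without DU145) to 70.4% (without PC3) with a line left out. DU145 held the highest mean of every member tested under each alternative run for levels that kept it (the fit with no block has no line term), 8 of 8 with the 50th percentile filter and 9 of 9 with the others. The median of the quinone and carbonyl list was -0.12 with cyclic loess and -0.00910 with the 50th percentile filter, against -0.09, and -0.1445 to -0.0465 with a line left out. That of the glutathione list was -0.1125 to 0.0606 with a line left out. Without VCaP, the medians of the thioredoxin and heme lists were -0.01 and -0.0143, against 0.05 and 0.04. The cause of these shifts was not tested. Dim probe sets such as OSGIN1 limit what could be seen.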
